A study of Mus musculus with 12 samples.

Results

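miR-126a and the pair of miR-221 and miR-222 are microRNAs best known from the lining and wall of blood vessels. They were followed here in mouse gastrocnemius, a large calf muscle, at 6 and 24 months of age. The 6 members were the table rows mmu-miR-126a-3p, mmu-miR-126a-5p, mmu-miR-221-3p, mmu-miR-221-5p, mmu-miR-222-3p and mmu-miR-222-5p, the arms of 3 hairpins, among 1900 mature miRNAs listed. They were chosen by name and not by a cut on their values, though with earlier results of these data known, and all 6 were found. Each of the 12 small RNA libraries came from the muscle of 1 male C57BL/6 mouse, 6 young (6 months) and 6 aged (24 months). The animals carried no transgene and received no agent that the labels or methods name, so age was the only stated difference between the groups. Whole muscle was used, so every level below is a mixture of muscle fibres, vessels, blood and other cells.

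A miRNA hairpin yields a 5p strand and a 3p strand, and either can be loaded into the silencing complex, where the seed, bases 2 to 8, pairs with target mRNAs. miR-126a is made from an intron of Egfl7, a gene for a protein secreted by endothelial cells. miR-126a-3p is known to favour VEGF and FGF signalling in endothelium by repressing inhibitors such as Spred1, and miR-126a-5p is known to repress Dlk1 there. miR-221 and miR-222 are made together from 1 locus on the X chromosome. They are known to repress the receptor Kit in endothelium and the cell cycle inhibitor Cdkn1b in several cell types, and in cultured muscle cells they fall as myoblasts differentiate. The table held miRNAs only, so no endothelial mRNA could be read beside them, and the cell type that each member came from was not measured.

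The sequences show what set the members apart and what could not be separated. Mature sequences were taken from RefSeq on GRCm38.p6 and were found for 4 of the 6 members. The seed is in capitals and each sequence is written 5′ to 3′. The first set gives the members, of which miR-221-3p and miR-222-3p carry the same seed.
miR-126a-3p: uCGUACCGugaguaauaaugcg
miR-221-3p: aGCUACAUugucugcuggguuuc
miR-222-3p: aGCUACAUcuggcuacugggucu
miR-221-5p: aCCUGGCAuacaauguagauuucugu

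miR-221-3p and miR-222-3p had the same first 8 bases and the same base at 11 of 23 positions in all, so their reads differ in the 3′ part. The seed of this pair occurred in 1 other mature mouse miRNA of the RefSeq table, miR-1928, which was listed at 0 in all 12 libraries. The seeds of miR-126a-3p and miR-221-5p occurred in no other entry. Of the 3 miRNAs with this seed, only miR-221-3p and miR-222-3p were thus read in these libraries.

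The Mir126a hairpin lies on chromosome 2 at 26591357 to 26591429 of GRCm38.p6 (mm10), on the plus strand, 73 bases long. It is inside Egfl7 (26580014 to 26593120, same strand). It was intronic in 8 of the 9 Egfl7 transcripts that span it and lay in an exon of 1 transcript, Egfl7-206. The gene model Gm20532 also spans it. The minus strand of the same place holds Mir126b (26591363 to 26591420), whose 58 bases all lie within Mir126a. Its arms are shown because they are the reverse strand of the miR-126a arms.
miR-126b-5p: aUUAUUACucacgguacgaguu
miR-126b-3p: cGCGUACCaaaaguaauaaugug

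These rows could not be told apart from those of miR-126a. The deposited log2 value of miR-126a-5p exceeded that of miR-126b-3p by 0.14 in all 12 libraries, and that of miR-126a-3p differed from miR-126b-5p by -0.01 to 0. Whether the authors' counting used strand was not given in the sources used here. Every value of miR-126a below is thus a value of reads from either strand of this place. The locus of miR-221 and miR-222 had no such partner. Mir221 lies on the X chromosome at 19146294 to 19146388 and Mir222 at 19146893 to 19146971, both on the minus strand and 504 bases apart. No annotated host gene spans either hairpin, and the nearest other gene within 20000 bases was the transcript model Gm14636.

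Depth set what could be seen of each member. The libraries held an estimated 120437 to 7761592 mapped reads, with a median of 451268 for the young group and 1347329 for the aged group. A single read of 22 bases was therefore worth between 5.86 FPKM (fragments scaled to miRNA length and sequencing depth) in aged library 3 and 377 FPKM in aged library 5, a 64.4-fold range. Aged library 5 was the shallowest of the 12, with young libraries 4 and 3 next at 212621 and 298614 reads. A count of 0 for a miRNA of 23 bases in aged library 5 allows a level of up to 1083 FPKM (3 reads), which is above every level of miR-222-3p measured in any library. Intervals on reads cover counting error only and leave out the spread between animals. PCR copies were not marked, so they may understate counting error too.

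The 6 members spanned a wide range of levels, ordered by the mean FPKM over the 12 libraries. miR-126a-5p was read most, at 325405 FPKM, and ranked 15 of 1900. miR-126a-3p followed at 37595 FPKM (rank 48). miR-221-3p stood at 1894 FPKM (rank 137) and miR-222-3p at 659 FPKM (rank 191). The miR-221-5p strand had 138 FPKM (rank 287) and miR-222-5p 31.4 FPKM (rank 426). Each of the first 3 lay above the next in every library, and so the ranges of these neighbours did not overlap. miR-222-3p and miR-221-5p overlapped in range, as did miR-221-5p and miR-222-5p, and those neighbours could not be ordered in every library.

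**Figure D1:**
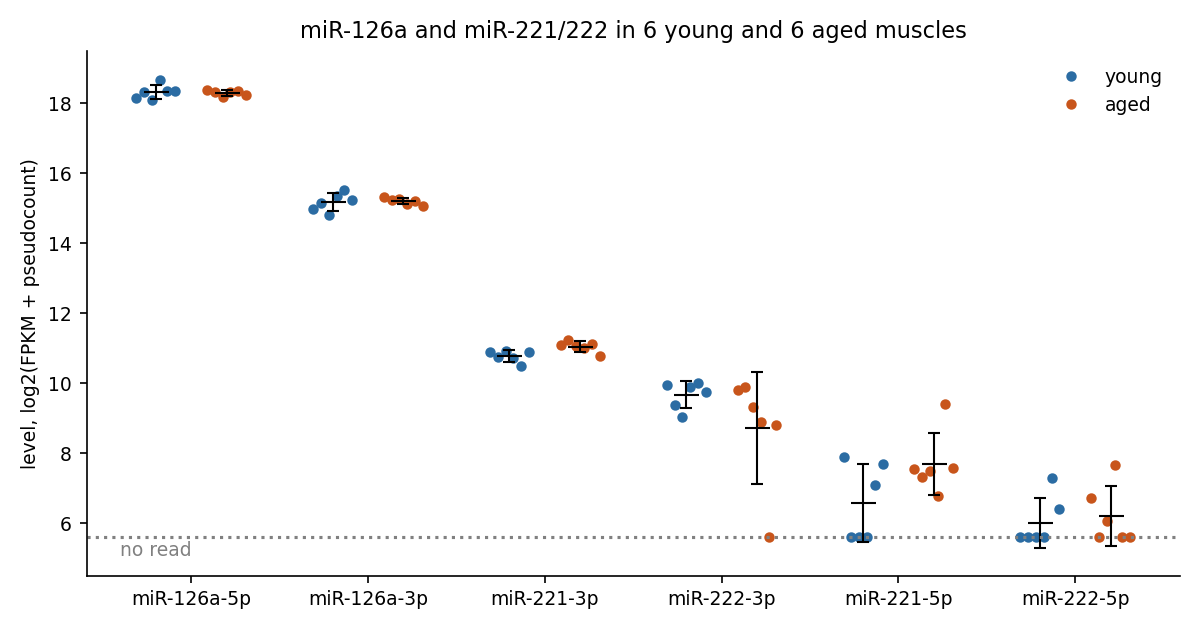
Level of each member in the 12 libraries, as log2 of FPKM plus a pseudocount of 48.2, with young libraries in blue and aged libraries in orange, in order of replicate number from left to right within a group. Bars show the mean and SD of 6 libraries, and the dotted line is the value given to no read. Both miR-126a arms and miR-221-3p form tight groups, whereas 1 aged library (aged 5) sits at the no-read line for miR-222-3p and above the other aged libraries for miR-221-5p.

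miR-126a was nearly level between the ages. miR-126a-5p ran from 279018 to 414209 FPKM with a median of 329526 in young muscle, and from 296979 to 341139 FPKM with a median of 326112 in aged muscle. The aged range lay wholly inside the young range. The highest value, in young library 4, came from a shallow library but rested on an estimated 1838 reads. The group means were 329209 ± 47764 and 321601 ± 16344 FPKM (SD, n = 6 each). The fitted change, aged minus young, was -0.02 on the log2(FPKM + 48.2) scale (SE 0.11, limma, adjusted p = 0.961). Its 95% interval ran from -16.1% to 15.4%, and changes inside it were not excluded here. In whole muscle, fewer cells of a type and less RNA per cell cannot be told apart.

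miR-126a-3p, the strand that represses Spred1, ran from 28725 to 46988 FPKM with a median of 37269 in young muscle and from 34160 to 41190 FPKM with a median of 38301 in aged muscle. Again the aged libraries all fell within the young range. The means were 37304 ± 6552 and 37887 ± 2539 FPKM (SD, n = 6 each), and the change was 0.04 on the log2 scale (SE 0.12, limma, adjusted p = 0.944). Its 95% interval ran from -13.5% to 21.9%. Summed over all miRNAs, miR-126a-5p made up 0.772% ± 0.125 of summed FPKM at 6 months and 0.734% ± 0.0630 at 24 months (SD, n = 6 each).

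Both miR-126a strands and miR-221-3p also had a small spread between libraries of 1 age. Among the 211 miRNAs with a mean of at least 482 FPKM, the median SD within an age was 0.326 on the log2 scale. miR-126a-5p had an SD of 0.152, the 10th lowest, miR-221-3p 0.158, the 13th lowest, and miR-126a-3p 0.193, the 28th lowest. miR-222-3p had an SD of 1.16 and ranked 203rd, a value that includes the library in which it had no read. These ranks are descriptions, since counting error differs between miRNAs and is small for the much read miR-126a strands. miR-221-3p had as few as 8 reads in a young and 6 in an aged library. Its small SD therefore cannot be read as steadiness between animals.

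miR-221-3p, the better read strand of the pair, was higher on average in aged muscle. In young libraries 1 to 6 it measured 1846, 1675, 1898, 1641, 1389 and 1833 FPKM, from 8 to 275 reads. In aged libraries 1 to 6 it measured 2135, 2353, 2091, 2006, 2165 and 1698 FPKM, from 6 to 373 reads. Of the aged libraries, 5 of 6 exceeded every young library and the sixth, aged 6, lay within the young range. The value of aged library 5 rested on 6 reads of 361 FPKM each, so 1 read fewer would place it within the young range. The means were 1714 ± 189 and 2075 ± 217 FPKM (SD, n = 6 each), a fitted fold of 1.21 with a 95% interval of 0.911 to 1.60.

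That difference did not pass the test over all miRNAs. The change was 0.27 on the log2 scale (SE 0.20, limma, adjusted p = 0.583). An exact permutation test of this miRNA alone gave p = 0.0130, and 0.174 after adjustment over the 482 miRNAs tested (two-sided, 6 against 6, where the smallest p is 0.002165). After quantile normalization the change was 0.42 on the log2 scale (limma, adjusted p = 0.265). Pooled over an age, miR-221-3p had 41.4 reads per 1000000 mapped reads in young and 47.8 in aged muscle, a ratio of 1.15 (95% interval 1.01 to 1.32, counting error only). Without the deepest library of each age the ratio was 1.22 (0.943 to 1.58). The pools were mostly 1 library, with 6526695 of 8550242 young reads in young 6 and 7761592 of 13470682 aged reads in aged 3. For miR-126a-5p the pooled ratio was 0.941 (0.931 to 0.951), and 1.022 (1.002 to 1.043) without those libraries. Both intervals leave out 1, on opposite sides, so such intervals do not measure a change with age.

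miR-222-3p, which has the seed of miR-221-3p, was lower on average in aged muscle, and 1 library carried much of that value. In young libraries 1 to 6 it measured 942, 617, 481, 898, 982 and 809 FPKM, from 3 to 121 reads. In aged libraries 1 to 6 it measured 855, 904, 596, 428, 0 and 396 FPKM, from 0 to 106 reads. The 0 was in aged library 5, the shallowest, and 4 of the 6 aged libraries lay below the young median of 853 FPKM. The groups overlapped. The means were 788 ± 199 and 530 ± 334 FPKM (SD, n = 6 each).

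The change of miR-222-3p was -0.95 on the log2 scale (SE 0.54, 95% interval -2.06 to 0.17, limma, adjusted p = 0.461). Without aged library 5 it was -0.32 (adjusted p = 0.682). With depth as a covariate it was -1.34 (unadjusted p = 0.0127, adjusted p = 0.180, limma). With a pseudocount of 1 FPKM it was -1.89 and with 482 FPKM -0.39, and it passed with neither. The reads pooled over an age gave 18.5 per 1000000 in young and 14.2 in aged muscle, a ratio of 0.767 (95% interval 0.618 to 0.953, counting error only). Leaving out the deepest library of each age gave 0.814 (0.547 to 1.23).

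The passenger strands were near the limit of detection. miR-221-5p had 3, 0, 0, 0, 1 and 27 reads in young libraries 1 to 6 and 6, 4, 27, 2, 2 and 5 reads in aged libraries 1 to 6. It was thus above 0 in 3 of 6 young and in 6 of 6 aged libraries, and all 3 young libraries without a read had 212621 to 465339 mapped reads. Its level was 72.3 ± 85.7 FPKM in young and 204 ± 213 FPKM in aged muscle (SD, n = 6 each), with 635 FPKM, from 2 reads, in aged library 5. The change was 1.12 on the log2 scale (SE 0.57, 95% interval -0.06 to 2.29, limma, adjusted p = 0.407), and 0.77 without aged library 5. With depth as a covariate it stayed at 1.12 (limma, adjusted p = 0.443). With a pseudocount of 1 FPKM it was 3.69 and with 482 FPKM 0.28, and it passed with neither.

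Reads pooled over an age gave a different value for miR-221-5p, with 31 of 8550242 reads in young and 46 of 13470682 in aged muscle, or 3.63 and 3.41 per 1000000. The ratio was 0.942 with a 95% interval of 0.585 to 1.54 (counting error only). The pooled counts rest on young library 6 and aged library 3. Without them the ratio was 1.68 with an interval of 0.560 to 6.80, from 4 and 19 reads.

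miR-222-5p was the least read member, with 6 reads in all young libraries and 9 in all aged libraries. It was above 0 in 2 of 6 young and 3 of 6 aged libraries, and just passed the requirement of 5 libraries above 0. Its mean was 24.3 ± 44.1 and 38.5 ± 61.4 FPKM (SD, n = 6 each), and its change of 0.19 on the log2 scale (SE 0.41, limma, adjusted p = 0.908) had a 95% interval of -0.66 to 1.05.

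No member was called changed with age. Across all 482 miRNAs tested, 14 (2.9%) had an adjusted p under 0.05 in limma, 3 higher and 11 lower in aged muscle, and 0 of the 6 members were among them. At an unadjusted p under 0.05 limma gave 62 of 482 (12.9%), again with 0 of 6 members. The exact permutation test gave 66 of 482 at an unadjusted p under 0.05, of which 1 was a member (miR-221-3p), and 0 after adjustment. In 13 of 482 miRNAs (2.7%) the ranges of the ages did not overlap, and this was true of 0 members. By sign 4 members were higher and 2 lower in aged muscle, with a median change of 0.12, beside 267 higher, 215 lower and a median of 0.07 over all miRNAs tested.

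**Figure D2:**
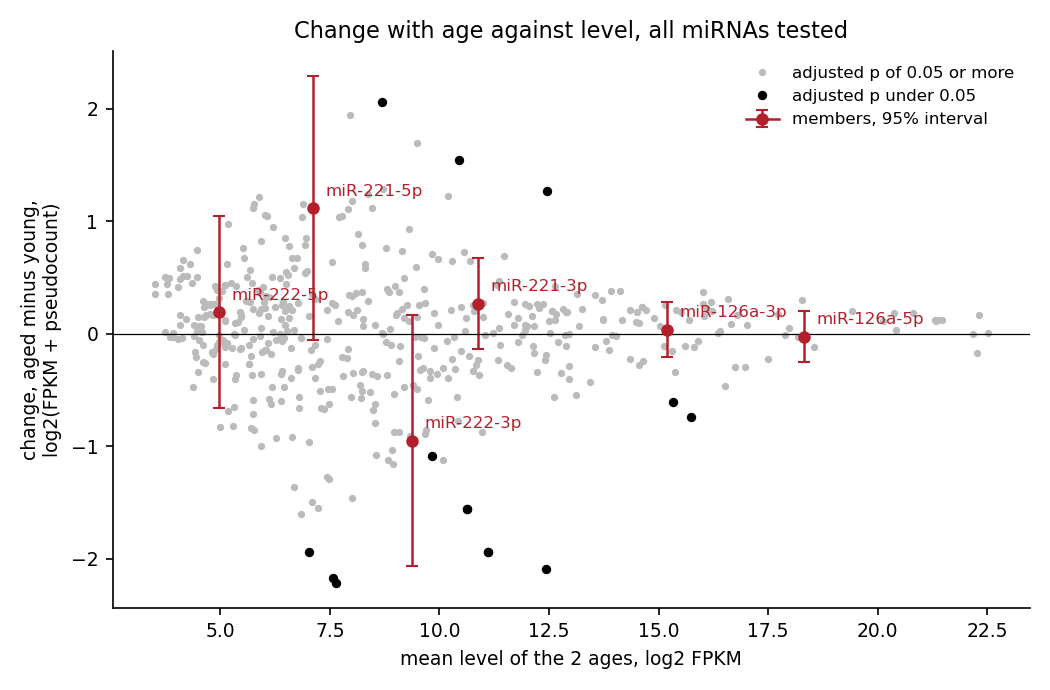
Change with age, aged minus young on the log2(FPKM + 48.2) scale, against the mean level in log2 FPKM for the 482 miRNAs tested. Members are in red with 95% intervals, and black points had an adjusted p under 0.05 in limma. The interval of every member spans 0, from a narrow one for miR-126a-5p (-0.25 to 0.21) to a wide one for miR-221-5p (-0.06 to 2.29).

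The balance of miR-221 and miR-222 was compared inside each library. The scaling of the library cancels in a share of reads, but not fully in the log2 ratios, which hold the pseudocount in both terms. miR-222-3p made up 33.3%, 28%, 18.8%, 33.3%, 41.7% and 30.6% of the pair's 3p reads in young libraries 1 to 6. It made up 28.7%, 27.5%, 22.1%, 17.4%, 0% and 18.8% in aged libraries 1 to 6. The aged shares were lower on average, but the groups overlapped, with young libraries 2 and 3 inside the aged range, and the values rested on 6 to 479 reads of the pair. In the deepest libraries the shares were 30.6% of 396 reads in young library 6 and 22.1% of 479 reads in aged library 3. Pooled, the share was 30.9% of 512 reads in young muscle (exact 95% interval 26.9% to 35.1%) and 22.9% of 835 reads in aged muscle (20.1% to 25.9%, counting error only).

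**Figure D3:**
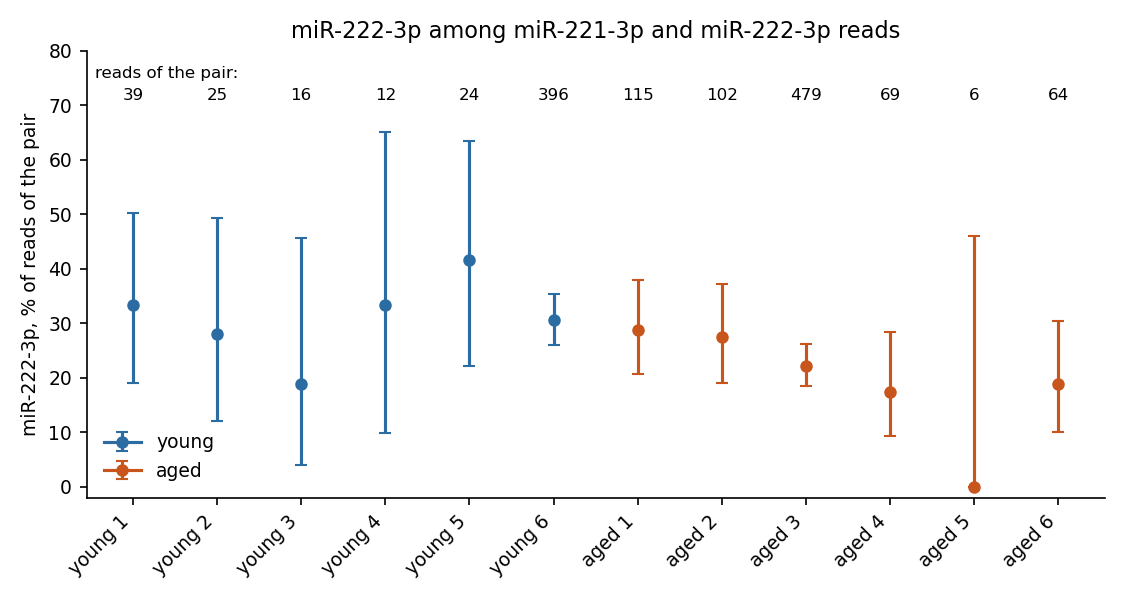
Share of miR-222-3p, in percent, among the estimated reads of miR-221-3p and miR-222-3p in each library, with exact 95% binomial intervals and the number of reads of the pair above each point. Intervals of the shallow libraries are wide, and the 0% of aged library 5 rests on 6 reads and has an interval that reaches above the share of every young library.

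Over animals the mean share was 30.9% ± 7.54 in young and 19.1% ± 10.4 in aged muscle (SD, n = 6 each). The exact permutation test gave p = 0.0346 (two-sided), and 0.0747 after adjustment with the other ratios. This measure was chosen after seeing the data. Without aged library 5 the aged mean was 22.9% ± 5.06 (SD, n = 5), a difference of -8.06 percentage points, and the unadjusted exact p was 0.0714. The log2 ratio of miR-222-3p to miR-221-3p, with the pseudocount in both, was -1.11 ± 0.482 in young and -2.32 ± 1.60 in aged muscle (SD, n = 6 each). The aged mean includes -5.52 in aged library 5, a value that depends on the pseudocount. The difference of this ratio, -1.22, had an exact permutation p of 0.0325, and 0.0747 after adjustment over the 3 ratios compared. Without aged library 5 the difference was -0.58 and the adjusted exact p 0.179. Over the 9 libraries of at least 300000 mapped reads (4 young, 5 aged) it was -0.70, with an exact p of 0.0476 and an adjusted p of 0.127. The adjusted exact p fell below 0.05 after quantile normalization (0.0325) and without young library 3 (0.0487), aged library 1 (0.0260) or aged library 2 (0.0292).

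Set against miR-126a-3p in the same library, the members of the pair had differences of opposite sign, and neither passed after adjustment. The log2 ratio of miR-221-3p to miR-126a-3p was -4.39 ± 0.403 in young and -4.16 ± 0.102 in aged muscle, a difference of 0.23 (SD, n = 6 each, exact permutation p = 0.216, adjusted p = 0.216). The ratio of miR-222-3p to miR-126a-3p was -5.50 ± 0.273 and -6.49 ± 1.58, a difference of -0.99 (SD, n = 6 each, exact permutation p = 0.0498, adjusted p = 0.0747). Without aged library 5 the latter was -0.36, with an adjusted exact p of 0.179, and without aged library 1 or aged library 2 its adjusted exact p was 0.0260. The ratio of miR-221-3p to miR-126a-3p passed after quantile normalization (0.41, adjusted exact p 0.0357) and without young library 3 (adjusted exact p 0.0487).

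The hairpins differed in which strand was read. miR-126a was mostly 5p, and miR-126a-3p made up 9.55% to 12.9% of the reads of both arms in young libraries and 10.4% to 12.3% in aged libraries. The log2 ratio of 5p to 3p was 3.15 ± 0.174 in young and 3.09 ± 0.102 in aged muscle (SD, n = 6 each). It changed by -0.06 (SE 0.14, 95% interval -0.37 to 0.25, limma, adjusted p = 0.857). The strand known to repress Dlk1 was the more abundant one in every library.

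miR-221 and miR-222 were mostly 3p. Pooled over an age, miR-221-5p made up 8.05% of 385 miR-221 reads in young and 6.67% of 690 in aged muscle, with exact 95% intervals of 5.54% to 11.2% and 4.92% to 8.79%. miR-222-5p made up 3.66% of 164 reads and 4.5% of 200 reads of miR-222. The log2 ratio of 5p to 3p of miR-221 was -4.20 ± 1.11 in young and -3.35 ± 0.885 in aged muscle (SD, n = 6 each), a change of 0.85 (SE 0.55, limma, adjusted p = 0.510) that was 0.52 without aged library 5. That of miR-222 changed by 1.14 (SE 0.65, limma, adjusted p = 0.466), from -3.66 ± 0.625 to -2.52 ± 1.59 (SD, n = 6 each). In aged library 5 neither miR-222 arm had a read, so its ratio came from the pseudocount alone, and without that library the change was 0.64. Over the 130 hairpins tested, 1 arm ratio (0.769%) passed in limma, and 0 of the 3 hairpins here did.

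**Figure D4:**
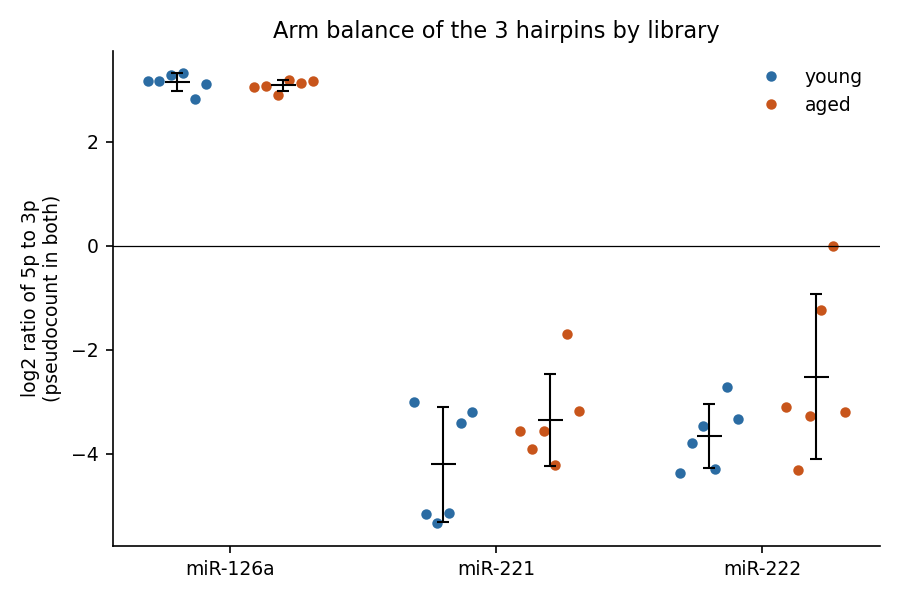
Log2 ratio of the 5p to the 3p level of each hairpin by library, with the pseudocount in both arms, young in blue and aged in orange, and the mean and SD of 6 libraries as bars. miR-126a lies near 3 in all 12 libraries. Values of miR-221 and miR-222 scatter below 0, and the single point at 0 is miR-222 in aged library 5, where neither arm had a read.

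Across the 12 libraries no pair of members was shown to rise and fall together. Of 15 pairs of members, 0 passed adjustment over the 15 by Pearson's r or Spearman's rho. Counting error in the less read members could hide a relation, so this does not show that they vary apart. The closest pair was the 2 arms of miR-126a, with r = 0.667 (permutation p = 0.0216, adjusted p = 0.324) and rho = 0.758 (permutation p = 0.00596, adjusted p = 0.0894). Without young libraries 3 and 5, the farthest from the median, r was 0.669. Within young muscle r was 0.734 (exact permutation p = 0.0819) and within aged muscle 0.316 (exact permutation p = 0.553).

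The clustered miR-221-3p and miR-222-3p had r = -0.320 (permutation p = 0.292, adjusted p = 0.755) and rho = -0.294 (permutation p = 0.354, adjusted p = 0.861). Without young library 5 and aged library 2 r was -0.448. All 3 values include aged library 5, where miR-222-3p had no read and took the value of the pseudocount. Within young muscle r of this pair was -0.509 (exact permutation p = 0.342) and within aged muscle 0.0347 (exact permutation p = 0.908). miR-126a-3p and miR-221-3p gave r = -0.217 over all libraries (permutation p = 0.496, adjusted p = 0.755) and rho = -0.119 (permutation p = 0.716, adjusted p = 0.934). Without young libraries 3 and 5 their r was 0.287. Within young muscle their r was -0.867 (exact permutation p = 0.0236) and within aged muscle 0.756 (exact permutation p = 0.0792). These 2 values were unadjusted and their difference was not tested.

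The miRNAs most like each member in profile over the 12 libraries were found among those with a mean of at least 482 FPKM. All libraries share 1 scaling, so these correlations are descriptions. Apart from the miR-126b rows, miR-126a-3p was most like miR-22-3p (r = 0.940) and miR-30d-5p (r = 0.887). miR-126a-5p was most like miR-322-5p (r = 0.916) and miR-16-5p (r = 0.839). miR-221-3p had no close match, the highest being miR-140-5p (r = 0.628), followed by miR-486-3p and its opposite-strand copy miR-3107-5p (r = 0.597 each).

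For miR-222-3p the closest were miR-421-3p (r = 0.938), miR-6240 (r = 0.925) and miR-20a-5p (r = 0.897). All 3 were listed at 0 in aged library 5, as was miR-222-3p, and without that library r was 0.537, 0.540 and -0.03. miR-221-5p was most like miR-99a-3p (r = 0.765), miR-671-3p (r = 0.763) and miR-106b-5p (r = 0.748), and without aged library 5 these were 0.607, 0.645 and 0.595. miR-222-5p was most like miR-3061-3p (r = 0.769), miR-21a-5p (r = 0.722) and miR-196a-5p (r = 0.711), from 15 reads of miR-222-5p in all.

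The members were set beside miRNAs of the vessel wall and of the other cells that whole muscle holds. Of 29 other endothelial and angiogenic miRNAs listed, 26 were tested. Over all 482 miRNAs tested, 3 rose and 11 fell in limma, and in this list 2 rose and 0 fell. These were miR-132-3p, a miRNA induced by growth factor signalling, with a change of 2.06 on the log2 scale (SE 0.56, adjusted p = 0.0497) and miR-146a-5p, a brake on NF-kB signalling also abundant in white cells, with 1.27 (SE 0.35, adjusted p = 0.0497). The remaining 24 did not pass. By sign 17 of all 26 were higher and 9 lower, with a median change of 0.11, beside 267 higher and 215 lower over all 482. The list was chosen with earlier results of these data known. The study had already listed miR-132, miR-146a, miR-155 and miR-34a as higher in aged muscle, so these counts are descriptions. Without the miR-126b rows the list had a median of 0.13 over 24 miRNAs.

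The changes of this list ran from -1.12 for miR-20a-5p to 2.06 for miR-132-3p. miR-23a-3p, miR-24-3p and miR-27a-3p had changes of 0.38, 0.24 and 0.26 on the log2 scale. The related miR-23b-3p and miR-27b-3p had 0.10 and 0.21, and none of these passed. Genomic copies of a mature miRNA were summed, so a value need not come from 1 cluster. Of the miRNAs found in the cluster from miR-17 to miR-92a, miR-92a-3p, which restrains vessel growth, had 0.37 and miR-19b-3p 0.03. miR-17-5p had -0.24, miR-18a-5p -0.59, miR-19a-3p -0.10 and miR-20a-5p -1.12 (SE 0.56, limma, adjusted p = 0.398). miR-34a-5p, which increases in senescent endothelium, had 1.23 (SE 0.35, limma, adjusted p = 0.0626). Below 0 were also the hypoxia miRNA miR-210-3p with -0.57, miR-100-5p with -0.29 and miR-181b-5p with -0.22, and none of these passed.

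Of the 4 smooth muscle miRNAs of the vessel wall, 0 rose and 1 fell. This was miR-143-5p, the passenger strand of a smooth muscle miRNA, with -1.09 (SE 0.30, limma, adjusted p = 0.0497). miR-143-3p, the guide strand, had 0.17 (limma, adjusted p = 0.679). miR-145a-5p was also lower, with -0.43 (limma, unadjusted p = 0.0040, adjusted p = 0.0975), and miR-145a-3p had 0.31 (limma, adjusted p = 0.494). The median change of the 4 was -0.13. Of the 7 muscle fibre miRNAs, 1 rose and 0 fell, and this was miR-206-3p, a miRNA of regenerating and denervated muscle, with 1.54 (SE 0.39, limma, adjusted p = 0.0296). The median of these 7 was 0.17. All 4 calls in these lists (miR-132-3p, miR-146a-5p, miR-143-5p and miR-206-3p) were lost in most of the alternative settings tried.

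Blood in the tissue was followed by 3 red cell and 4 white cell miRNAs, of which 0 passed in limma in either direction. The summed red cell level ran from 5828 to 10486 FPKM in young and from 3022 to 10507 FPKM in aged muscle, with 1 of 3 higher and a median change of -0.34. The summed white cell level ran from 8449 to 19468 FPKM in young and from 11136 to 24904 FPKM in aged muscle, with 3 of 4 higher and a median change of 0.36. None of these 7 markers was at 0 in any library. Their part in the values of the members was not tested.

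**Figure D5:**
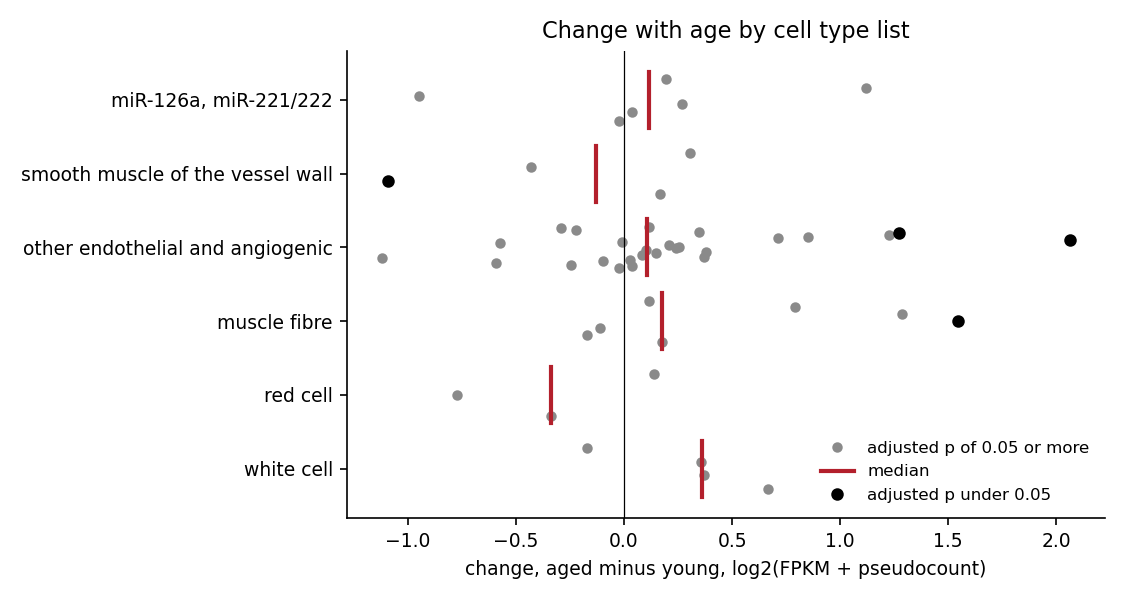
Change with age, aged minus young on the log2(FPKM + 48.2) scale, for the members and for each list of miRNAs named for a cell type, with the median of the list as a red line. Black points had an adjusted p under 0.05 in limma. The medians lie between -0.34 (red cell) and 0.36 (white cell), and the members, with a median of 0.12, hold no black point.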

How the data were processed

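Small RNA of gastrocnemius muscle from 6 young and 6 aged mice was extracted with the mirVana kit and sequenced on an Illumina instrument. Per the study's methods, the authors trimmed adaptors, mapped reads to mm10 with BWA and computed FPKM per mature miRNA of miRBase. GEO's processing notes also list TopHat2, with no version. The deposited values are log2 FPKM to 2 decimals, with 0 for no read. Handling of multi-mapped reads and of strand was not given in the sources used here.

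The log was undone, and genomic copies of a mature miRNA were summed (2035 rows, 1900 miRNAs, 76.4% of values 0). Reads were estimated from FPKM and RefSeq mature length, a length that 1603 miRNAs had. This gave whole numbers, within 0.15, for 99.3% of the 3212 values below 25 reads. Reads of miR-126a-5p were taken from the miR-126b-3p row, and for miR-222-5p the length nearest to whole reads was used. The 482 miRNAs above 0 in at least 5 of 12 libraries entered the test on the log2(FPKM + 48.2) scale. The pseudocount is the median of the 12 libraries' lowest values above 0. The fit used limma 3.58.1 in R 4.3.3 (lmFit, eBayes with trend, aged against young, two-sided, Benjamini-Hochberg at 0.05). Changes of low miRNAs depend on the pseudocount, since a library with no read takes that value whatever its depth. The same fit was run on 5p to 3p ratios of 130 hairpins. Single ratios and shares were compared by exact permutation over 924 splits, and relations with 100000 resamples (Python 3.11.15, SciPy 1.17.1). The code was tested on simulated data.

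The miRNAs named are the members, the cell type lists, miRNAs with a member's seed and the 3 most alike in profile to each member. Members and lists were chosen with earlier results of these data known. Alternatives covered pseudocount, filter, scaling, model, pairing and single libraries. Hairpin positions come from RefSeq and GENCODE on GRCm38.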

Additional observations from a re-analysis of the deposited data

Results flagged for a closer look

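All 4 values that stood apart from their group came from aged library 5, the shallowest library, with 120437 mapped reads. In each, its gap to the nearest aged library exceeded Dixon's 95% limit for 6 samples. Chance flags about 1 in 20 groups, and 24 were examined. The flags are not separate events, since 3 of the 4 rest on the same absence of a miR-222-3p read. For miR-221-5p that library had 9.42 on the log2(FPKM + 48.2) scale, from 2 reads, beside 6.79 to 7.59 in the other aged libraries. For miR-222-3p it had 5.59, the value of no read, beside 8.80 to 9.90. Its log2 ratio of miR-222-3p to miR-221-3p was -5.52, beside -2.11 to -1.27, and its log2 ratio of miR-222-3p to miR-126a-3p was -9.62, beside -6.27 to -5.35. With depth as a covariate the age change was 1.12 for miR-221-5p and -1.34 for miR-222-3p (limma, adjusted p = 0.443 and 0.180).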

How the results depend on the processing

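No member passed an adjusted p of 0.05 in limma or in the exact test under any alternative run. The 14 miRNAs called with age became 6 with a pseudocount of 1 FPKM, 7 with no filter on low values, 8 with a filter on the mean, 8 with depth as a covariate and 0 with the exact test per miRNA (66 unadjusted), and 6 to 15 when single libraries were left out, but 19 with quantile normalization and 17 with median-of-ratios scaling. The arm ratio called for 1 hairpin became 0 with a pseudocount of 1 FPKM, 3 with a pseudocount 10 times larger, 2 with the replicate block and 0 in limma without trend, and 0 to 4 when single libraries were left out. The cause of these moves was not tested.

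The ratio of miR-222-3p to miR-221-3p passed after quantile normalization (-1.25, adjusted exact p 0.0325), and ran from -1.43 to -0.58 when single libraries were left out, passing without young library 3, aged 1 or aged 2. With a pseudocount of 1 FPKM it was -2.16 and with 482 FPKM -0.61, that of miR-222-3p to miR-126a-3p was -1.92 and -0.43, and neither passed. At the same pseudocounts the change of miR-222-5p was 0.90 and 0.0366, the arm ratio change of miR-221 was 3.41 and 0.0553 and that of miR-222 2.79 and 0.43, and none passed. The ratio of miR-221-3p to miR-126a-3p passed after quantile normalization (0.41, adjusted exact p 0.0357) and without young library 3, with a range of 0.10 to 0.33 when single libraries were left out. The ratio of miR-222-3p to miR-126a-3p ran from -1.21 to -0.36 and passed without aged 1 or aged 2. Signs turned for miR-126a-3p when single libraries were left out (-0.0333 to 0.11, negative without young 1 or young 3), for miR-126a-5p (-0.0687 to 0.0453, positive without young 4, and 0.0317 in pooled reads without the deepest libraries), for miR-222-5p (-0.10 to 0.45, negative without aged 4, and -0.0708 in pooled reads) and for miR-221-5p in pooled reads (-0.0864). The calls of miR-143-5p, miR-132-3p, miR-146a-5p and miR-206-3p were lost in 17 of 23, 16 of 22, 19 of 23 and 13 of 23 alternatives. Pooled reads, shares of reads and the depth minimum were chosen after seeing the data.

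Replicate numbers did not pair the samples: deviations of same-numbered libraries correlated from -0.226 to 0.219, and 0 of 6 young libraries were closest to their own number. With the replicate block 14 miRNAs were called (4 higher, 10 lower), and the ratio of miR-222-3p to miR-221-3p had an adjusted exact p of 0.1875. Depth limits miR-222-3p and both passenger strands most.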
